A study of Saccharomyces cerevisiae with 12 samples.

Results

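Transcript levels of 10 genes for enzymes of the core of glycolysis were followed in budding yeast, Saccharomyces cerevisiae, growing in galactose or glucose medium with and without a working source of histone H3. The genes were PFK1 (YGR240C), PFK2 (YMR205C), FBA1 (YKL060C), TDH1 (YJL052W), TDH2 (YJR009C), TDH3 (YGR192C), PGK1 (YCR012W), ENO1 (YGR254W), ENO2 (YHR174W) and CDC19 (YAL038W). They were taken by name, not by any measured value, although earlier results of these data were known. They are 10 of the 7127 features in the count tables. The data are counts of poly(A) RNA reads in 12 libraries, 4 groups with 3 biological replicates each. Wild type (WT, given as YEF4734A in one label and as YEF473A in the protocol) was grown in YPGal, which contains galactose, or moved to YPD, which contains glucose. H3i (DGS200.1), built in the same background, lacks HHT1, a gene for histone H3, and has the native promoter of the remaining H3 gene, HHT2, replaced by the GAL1 promoter, which galactose switches on and glucose switches off. H3i was sampled in the same media, and both strains share the change of carbon source, so a comparison of H3i with itself holds the change of sugar and the shut-off of HHT2 together. How long the cells were kept in YPD is not stated in the labels, H3 protein was not measured, and nothing says how many isolates of either strain were used.

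Glycolysis splits a sugar phosphate into pyruvate and yields ATP and NADH on the way. Galactose and glucose enter it by different routes and meet as hexose phosphates above the steps studied here, so the enzymes below serve both sugars. In yeast these genes are among the most strongly transcribed, and the transcription factors Rap1 and Gcr1, with Gcr2 and Tye7, are known for driving many of them. Several steps are encoded by near-identical gene copies (paralogs), of which one is usually the main glucose-grown form and another is known for higher use in poor carbon sources or under stress.

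The libraries differed in depth and quality. Replicate 1 held 2176277 to 2525223 counts on genes per library, replicate 3 held 8649749 to 11628815, and replicate 2 was the deepest with 40950610 to 52278567. In replicate 2, of the coding features with a mean of 50 CPM or more in replicates 1 and 3 of a group, 42.4% to 47.3% stood at under 0.1 of that level in both WT groups and H3i YPGal, but in H3i YPD it was 1066 of 4847. PFK1, PFK2 and, in 3 of the 4 groups, TDH2 were among them. Tests were therefore fitted without replicate 2, on 8 libraries (n = 2 per group), and fits of all 12 libraries are given beside them. The cause of the loss was not tested. The labels state 1 extraction and library kit for replicates 1 and 2 and another for replicate 3, and the replicate number was a term in the fit. The H3 genes followed the labels: HHT1 stood at 634 to 1328 CPM in WT and at no more than 3.34 CPM in H3i, and HHT2 stood at 14.7 to 30.3 CPM in H3i YPD against 2284 to 4353 CPM in H3i YPGal. Both WT libraries of replicate 3 had HIS3 counts (22.7 and 21.9 CPM, against 0 elsewhere), no LEU2 or URA3 counts, and the pheromone transcript of the other mating type (MF(ALPHA)1 at 2464 and 2325 CPM). Members' calls that change without these libraries are given with and without them. CPM is a gene's counts divided by all gene counts of its library, times 1e6.

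Phosphofructokinase is made of an alpha subunit from PFK1 (chrVII:970771-973734, minus strand) and a beta subunit from PFK2 (chrXIII:671887-674766, minus). Its product is cut by aldolase, from FBA1 (chrXI:326408-327487, minus). The trioses are oxidised by glyceraldehyde-3-phosphate dehydrogenase, from TDH1 (chrX:338271-339269, plus), TDH2 (chrX:453683-454681, minus) or TDH3 (chrVII:882812-883810, minus). Phosphoglycerate kinase comes from PGK1 (chrIII:137746-138996, plus), enolase from ENO1 (chrVII:1000927-1002240, plus) or ENO2 (chrVIII:451327-452640, plus), and pyruvate kinase from CDC19 (chrI:71786-73288, plus). These are coding positions in RefSeq R64, the same build as sacCer3, each gene has 1 coding exon, and no other RefSeq gene overlaps any of them.

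Because the paralogs can be told apart only where their bases differ, the first 90 coding bases of the 3 TDH genes are shown, in the reference genome (R64, not the strain sequenced here), read from the start codon, with capitals at bases that differ from TDH3. TDH3 lies at chrVII:883721-883810 on the minus strand, TDH2 at chrX:454592-454681 on the minus strand and TDH1 at chrX:338271-338360 on the plus strand.
TDH3: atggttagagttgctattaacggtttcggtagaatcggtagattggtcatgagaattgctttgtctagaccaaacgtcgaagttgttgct
TDH2: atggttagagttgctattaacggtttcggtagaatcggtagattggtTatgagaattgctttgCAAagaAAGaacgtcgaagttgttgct
TDH1: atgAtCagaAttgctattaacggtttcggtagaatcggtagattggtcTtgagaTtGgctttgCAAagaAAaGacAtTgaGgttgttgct
In this stretch TDH2 differs from TDH3 at 7 bases and TDH1 at 15. Over the whole coding sequence of 999 bases, TDH2 and TDH3 are 95.8% identical with 42 differences, TDH1 and TDH2 are 90.2% identical with 98, and TDH1 and TDH3 are 88.9% identical with 111. The longest stretch without a difference is 173 bases between TDH2 and TDH3 and 92 bases between TDH1 and TDH3.

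ENO1 and ENO2 have 1314 coding bases each, are 94.8% identical with 68 differences, and do not differ at all over their first 90 coding bases. The 90 bases in which they differ most, coding bases 155 to 244, are shown with capitals at the 13 differences. ENO2 lies at chrVIII:451481-451570 and ENO1 at chrVII:1001081-1001170, both on the plus strand.
ENO2: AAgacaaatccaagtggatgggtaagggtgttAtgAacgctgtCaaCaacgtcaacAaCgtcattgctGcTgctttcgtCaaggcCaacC
ENO1: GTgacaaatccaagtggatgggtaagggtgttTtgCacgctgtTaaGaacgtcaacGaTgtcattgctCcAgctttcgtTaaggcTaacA
Of all runs of 50 bases in the coding sequence, 31.3% of those of TDH2, 24.4% of TDH3, 15.7% of TDH1 and 23.6% of ENO1 and of ENO2 occur elsewhere in the genome, and none of those of PFK1, PFK2, FBA1, PGK1 or CDC19 do. For runs of 100 bases the shares were lower, at 12.8% (TDH2), 8.22% (TDH3), 4.56% (TDH1) and 2.72% (ENO1 and ENO2). Reads that lie within such shared runs cannot be assigned to 1 gene. The counts of TDH1, TDH2, TDH3, ENO1 and ENO2 are therefore less certain than those of the other 5 genes. Reads that aligned to more than 1 place made up 23.5%, 18.5% and 21.5% of all counts in H3i YPD (replicates 1, 2 and 3) and 6.68% to 14.9% in the other groups. The part of this difference in the paralog results was not tested.

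Because the series concerns Rap1 binding, the 600 bases before each start codon were searched on both strands for CACCC followed, after any 2 bases, by ACA, a form of the Rap1 motif, and for CTTCC, the core of the Gcr1 motif. The Rap1 letters occurred before 3 of the 10 genes (PFK2, TDH3 and ENO1) and before 2.54% of 5986 coding genes. The Gcr1 letters occurred before 9 of the 10 genes, all but TDH3, and before 72.9% of all. Both occurred together before 2 of the 10 and before 1.89% of all. The Rap1 matches are shown with 25 bases on either side, read in the direction of the gene, with both motifs in capitals. The windows lie at chrXIII:675261-675320 for PFK2 and chrVII:884287-884346 for TDH3 (both genes on the minus strand), and at chrVII:1000434-1000493 for ENO1 (plus strand).
PFK2: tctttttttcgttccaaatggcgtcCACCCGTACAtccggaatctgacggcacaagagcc
TDH3: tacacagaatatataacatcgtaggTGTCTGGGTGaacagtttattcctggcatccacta
ENO1: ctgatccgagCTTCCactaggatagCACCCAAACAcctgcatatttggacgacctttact
The match begins 529 bases before the start codon in PFK2, 511 in TDH3, where it lies on the strand opposite to the gene, and 468 in ENO1, where a Gcr1 match begins 15 bases upstream of it. A match is a description of the letters and not a measured binding site, and no binding data were used.

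The 10 genes spanned a wide range of levels. By the mean of replicates 1 and 3 in WT YPD, per kilobase of coding sequence, the order was TDH3 (9253 CPM per kb), FBA1 (7192), ENO2 (5981), TDH2 (2592), PGK1 (1761), CDC19 (1466), PFK2 (409), PFK1 (394), ENO1 (279) and TDH1 (30.8). Neighbours whose libraries overlapped, and which this order does not separate, were TDH3 with FBA1 and FBA1 with ENO2, TDH2 with PGK1 and PGK1 with CDC19, and PFK2 with PFK1. In H3i YPD the order was TDH3 (10033), FBA1 (5248), ENO2 (3884), TDH2 (2108), TDH1 (1775.5), PGK1 (1589), ENO1 (1464), CDC19 (943), PFK2 (207) and PFK1 (181), so that TDH1, last in WT YPD, stood beside PGK1 there. Those neighbours were not separated, since TDH1 had 2237 and 1314 CPM per kb and PGK1 2249 and 928 in replicates 1 and 3. The libraries of all other neighbours from TDH3 down to CDC19 in H3i YPD overlapped too, so this order does not separate them. TDH3, the main glyceraldehyde-3-phosphate dehydrogenase gene, ranked 1 to 8 by CPM among all features in every library. Together the 10 genes took 2.81%, 2.18% and 2.13% of gene counts in WT YPGal (replicates 1, 2 and 3), 4.72%, 3.52% and 2.20% in WT YPD, 2.99%, 2.80% and 1.74% in H3i YPGal, and 4.29%, 3.71% and 1.93% in H3i YPD. Within every replicate the share was higher in YPD than in YPGal in both strains, but replicate 3 differed little and the groups overlap.

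**Figure D1:**
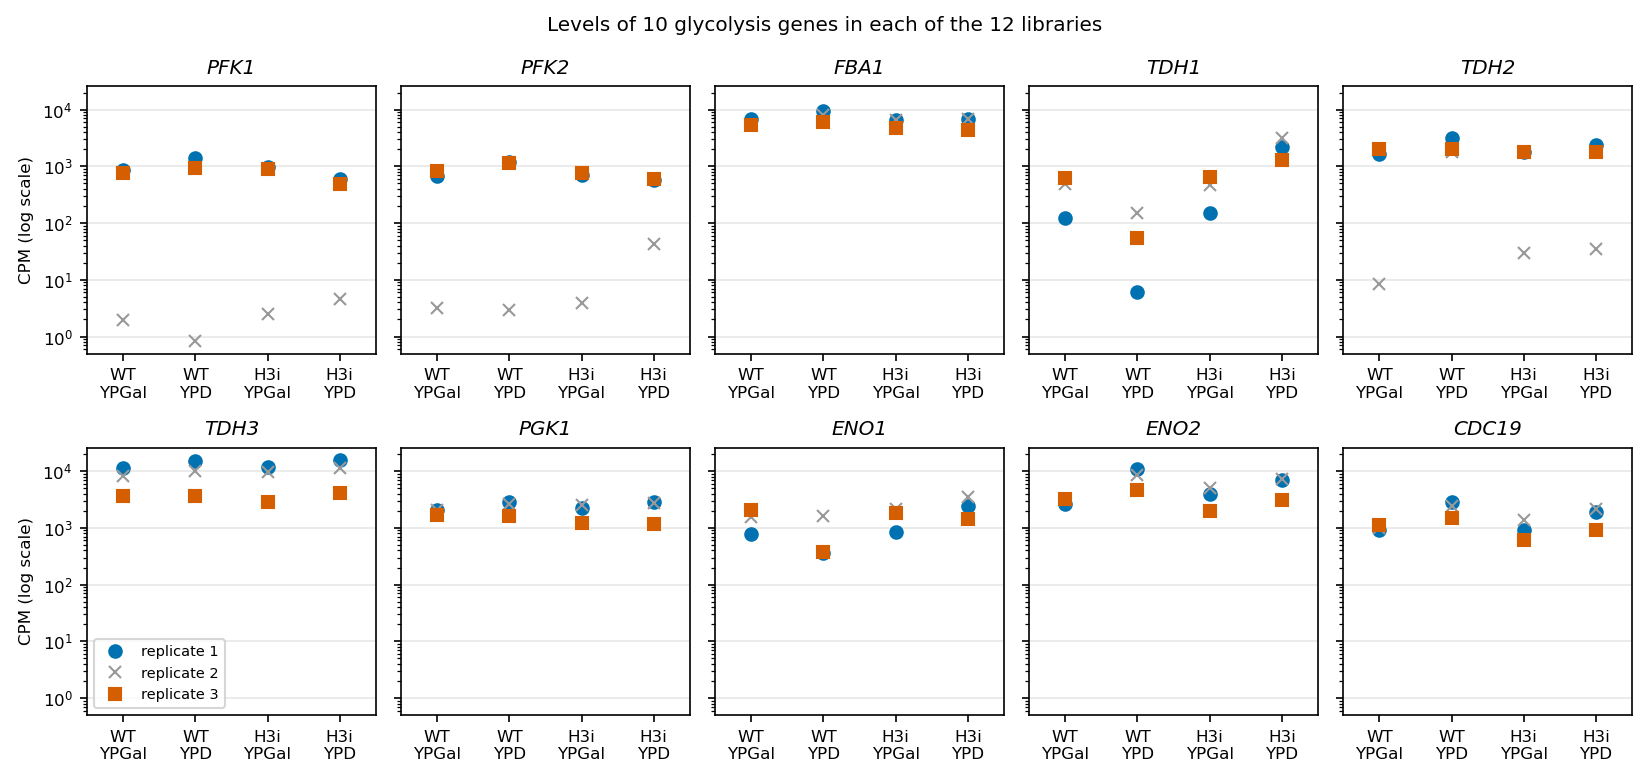
Each panel shows 1 gene, with its level in CPM on a log axis for the 4 groups and a point for each of the 12 libraries (circles, replicate 1; crosses, replicate 2; squares, replicate 3). PFK1 and PFK2 are almost absent from replicate 2 (0.823 to 42.7 CPM), TDH1 spans 6.05 to 3225 CPM, and FBA1 stays between 4390.0 and 9466 CPM.

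The first comparison, WT in YPD against WT in YPGal, gives the effect of the sugar where H3 is made normally. In fitted values, 8 of the 10 genes lay higher in YPD and 2, TDH1 and ENO1, lay lower, but none passed the test. With edgeR's quasi-likelihood test and Benjamini-Hochberg adjustment over all 6354 features tested, 0 members were called at an adjusted p under 0.05. The background was 0.771% of features called, 0.0944% higher and 0.677% lower. At an unadjusted p under 0.05 there were 5 of the 10 members, against 20% of all features and 44.8% of the 359 features with a mean of 500 CPM or more. The median of the 10 log2 changes was 0.54, against 0.01 over all features and 0.53 over those 359.

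The largest changes toward YPD in WT were in the last steps of the pathway. ENO2, the main enolase gene of glucose-grown cells, stood at 2602, 3089 and 3193 CPM in YPGal and at 11080.0, 8437 and 4639 CPM in YPD (replicates 1, 2 and 3). The YPD libraries all lay above the YPGal libraries, yet the fitted change of 1.39 ± 0.56 (log2, SE, 8 libraries) had an adjusted p of 0.230. CDC19, which encodes pyruvate kinase, stood at 905, 984 and 1116 CPM in YPGal and at 2913, 2423 and 1493 CPM in YPD. Here too no libraries overlapped, and the fitted change was 1.16 ± 0.42 (adjusted p = 0.203). In both genes replicate 3 moved least, with a log2 ratio of CPM of 0.54 for ENO2 and 0.42 for CDC19, against 2.09 and 1.69 in replicate 1.

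TDH1 and ENO1, known as the minor copies in glucose, lay the other way. TDH1 stood at 122, 497 and 632 CPM in WT YPGal and at 6.05, 149.9 and 55.4 CPM in WT YPD. YPD was the lower medium in each of the 3 replicates, although the groups overlap, since replicate 2 in YPD exceeded replicate 1 in YPGal. The lowest of these values rests on 14 counts. The fitted change was −3.56 ± 0.82 (adjusted p = 0.104). ENO1 stood at 795, 1530.4 and 2061 CPM in YPGal and at 359.8, 1648 and 375 CPM in YPD, lower in replicates 1 and 3 and about equal in replicate 2. Its fitted change was −1.70 ± 0.53 (adjusted p = 0.176).

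The 6 remaining genes had fitted changes of 0.32 to 0.83 in WT, none of them called. PFK1 and PFK2 encode the alpha and beta subunits of phosphofructokinase, the committed and most regulated step, and had 0.67 ± 0.29 and 0.83 ± 0.28. FBA1, for aldolase, which cuts the hexose into trioses, had 0.48 ± 0.47. TDH2 had 0.61 ± 0.39 and TDH3 0.35 ± 0.52, and PGK1, for phosphoglycerate kinase, the first step to return ATP, had 0.32 ± 0.38. The adjusted p of these 6 was 0.192 to 0.755. DESeq2, run on the same 8 libraries, called 657 features and 6 members in this comparison (PFK1, PFK2, ENO2 and CDC19 higher, TDH1 and ENO1 lower). With only the WT libraries of replicates 1 and 3 fitted, edgeR called 444 features and 2 members. These were TDH1 (−3.70 ± 0.33, adjusted p = 9.1e-08) and ENO1 (−1.65 ± 0.45, adjusted p = 0.0240), both lower. The lack of calls in the main fit thus depended on which libraries were fitted together. Without both WT libraries of replicate 3, edgeR called TDH1 alone of the 10 (log2 change −4.09).

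H3i against WT in YPGal compares the strains while HHT2 is transcribed from the GAL1 promoter. No member was called, and 0% of features were called by edgeR's test (114 features, none of them a member, at an unadjusted p under 0.05, and 12 features called by DESeq2). HHT1, which H3i lacks, was itself not called there (adjusted p = 0.0603), so the lack of calls does not show that the strains were alike. The fitted changes of the 10 genes ran from −0.54 ± 0.42 for CDC19 to 0.16 ± 0.29 for PFK1, all with an adjusted p of 1. TDH1, for example, stood at 122, 497 and 632 CPM in WT and at 149.9, 466 and 658 CPM in H3i. Each H3i value was close to the WT value of the same replicate, and the replicates differed more than the strains. For 9 of the 10 genes, all but PFK1, the sign of the fitted change turned in at least 1 alternative fit, so no direction is given for them.

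In YPD the strains differed. H3i had more TDH1 and ENO1 and less PFK1, PFK2 and CDC19 than WT, while the other 5 genes, among them the highly expressed TDH3, FBA1 and ENO2, did not pass the test. The difference was largest for TDH1, at 21.5-fold or more in every replicate. Of the 10 genes, 2 were called higher and 3 lower by edgeR's quasi-likelihood test with Benjamini-Hochberg adjustment, so 5 of 10 were called where the background was 49.8% of all features (26% higher, 23.7% lower). The share of members called was thus close to that of all features. Of the 359 features with a mean of 500 CPM or more, 9.75% were called higher and 68% lower. The median of the 10 members was −0.99, against 0.10 over all features and −1.74 over those 359.

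TDH1 stood at 2235, 3225 and 1312 CPM in H3i YPD and at 6.05, 149.9 and 55.4 CPM in WT YPD. Every H3i library lay above every WT library, by 369-fold, 21.5-fold and 23.7-fold within replicates 1, 2 and 3. TDH1 encodes a glyceraldehyde-3-phosphate dehydrogenase known for its expression in stationary phase and under stress. Its fitted difference was 6.15 ± 0.94 (log2, SE; adjusted p = 0.00174), and it was called however 1 of the 8 libraries was left out, with fitted differences of 4.18 to 7.41 and adjusted p of 0.000193 to 0.0172. Over 12 libraries the value was 4.42 ± 1.30 (adjusted p = 0.140) with a term for the kit and 5.30 ± 0.91 (adjusted p = 0.00944) with a block for the replicate number.

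ENO1, the enolase copy known for use on non-fermentable carbon, stood at 2408, 3549.8 and 1439.8 CPM in H3i YPD and at 359.8, 1648 and 375 CPM in WT YPD. H3i was higher in every replicate, but WT replicate 2 exceeded H3i replicate 3. The fitted difference was 1.82 ± 0.53 (adjusted p = 0.0230). It was not called without H3i YPD replicate 1 (0.85, adjusted p = 0.247), WT YPD replicate 1 (adjusted p = 0.0768) or WT YPD replicate 3 (adjusted p = 0.144). Without both WT libraries of replicate 3 the difference was 1.73 (adjusted p = 0.0609), and neither fit of 12 libraries called it.

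Both phosphofructokinase subunits were lower in H3i. PFK1 stood at 592 and 481 CPM in H3i YPD and at 1393 and 945 CPM in WT YPD in replicates 1 and 3. PFK2 stood at 583 and 608 CPM in H3i and at 1206 and 1149 CPM in WT. For each gene, neither H3i library reached the lower WT library, and H3i held 0.425 and 0.509 of the WT level for PFK1 and 0.484 and 0.529 for PFK2. Replicate 2 had 43 and 186 counts of PFK1 in WT and H3i and 156 and 1750 of PFK2, too few to compare the strains there. The fitted differences were −1.73 ± 0.30 for PFK1 (adjusted p = 0.00275) and −1.60 ± 0.29 for PFK2 (adjusted p = 0.00330), and both were called without any 1 of the 8 libraries and without both WT libraries of replicate 3. In the fits of 12 libraries neither was called, and with the replicate block PFK2 turned to 0.58 ± 1.12.

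CDC19 stood at 1919, 2116 and 915 CPM in H3i YPD and at 2913, 2423 and 1493 CPM in WT YPD. H3i was lower within each replicate, although the groups overlap. The fitted difference was −1.27 ± 0.42 (adjusted p = 0.0368). This call was lost without any of 6 of the 8 libraries (all but the WT YPGal ones, adjusted p = 0.0545 to 0.249), without both WT libraries of replicate 3 (adjusted p = 0.0766), and with library totals in place of TMM factors (−0.65, adjusted p = 0.175).

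The 5 genes that were not called had fitted differences of −1.24 ± 0.55 (ENO2), −1.07 ± 0.47 (FBA1), −0.91 ± 0.38 (TDH2), −0.82 ± 0.38 (PGK1) and −0.47 ± 0.52 (TDH3), with adjusted p of 0.0810 to 0.473. DESeq2 called all of these but TDH3 lower, and without either WT YPGal library edgeR called ENO2, TDH2 and PGK1 lower (adjusted p = 0.0338 to 0.0487). In CPM, FBA1 stood at 6946, 6828 and 4390.0 in H3i YPD and 9466, 8121 and 6068 in WT YPD, lower in each replicate, and with the replicate block over 12 libraries it was called at −0.93 ± 0.16 (adjusted p = 0.00936). TDH3 stood at 15942, 11194 and 4104 CPM in H3i and at 14873, 9920.0 and 3615 CPM in WT, higher in each replicate, and its fitted difference turned to 0.14 with library totals. The fitted values lie below the CPM ratios because TMM factors centre the libraries on the bulk of genes. Library totals moved the median of all features by 0.60 in this comparison, 0.39 in the H3i response, −0.16 in the WT response, 0.05 between strains in YPGal and 0.56 in the difference of responses, and the changes given here are relative to the TMM centre.

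**Figure D2:**
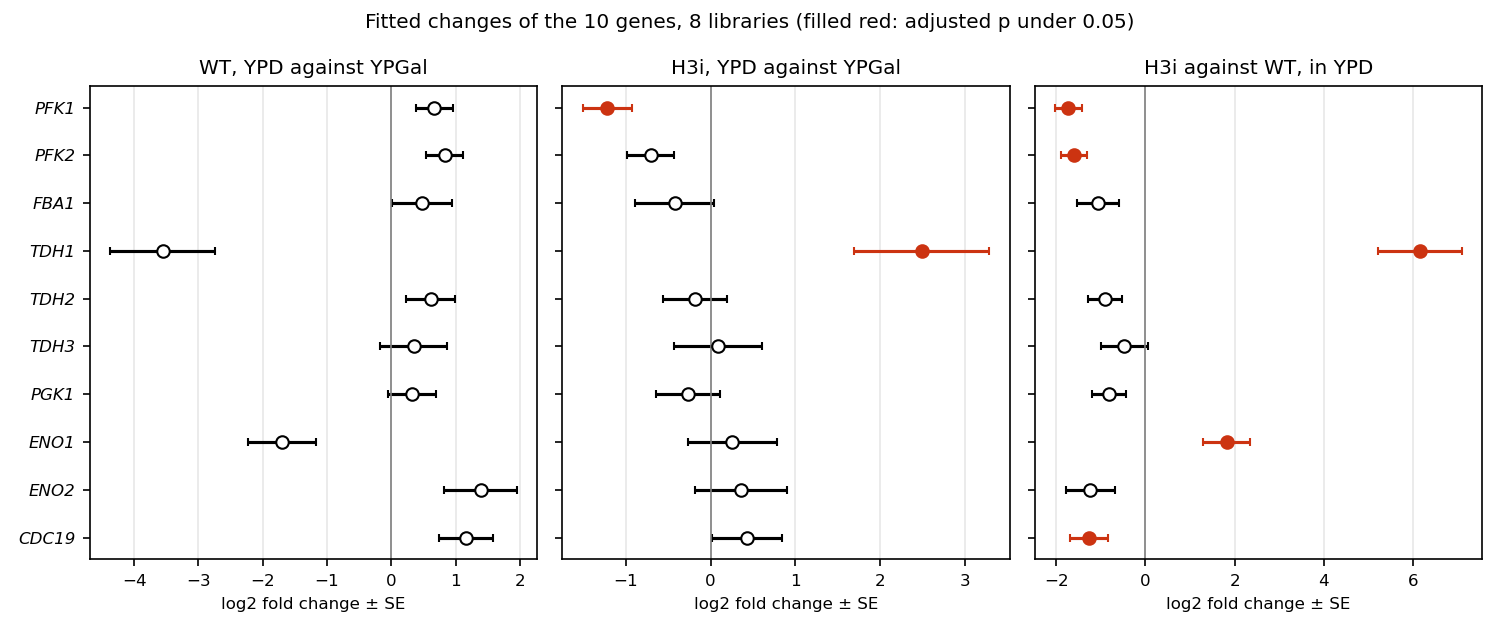
Log2 fold changes with standard errors derived from the test, in the fit of 8 libraries (n = 2 per group), for the 10 genes in 3 comparisons. Points are filled red where the adjusted p was under 0.05. In H3i against WT in YPD, TDH1 (6.15) and ENO1 (1.82) lie to the right of 0 and the other 8 genes to the left, and 3 of those 8 are filled.

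H3i in YPD against H3i in YPGal puts the change of sugar and the shut-off of HHT2 together. Here TDH1 rose, in the direction opposite to its fitted value in WT, PFK1 fell, and the other 8 genes did not pass the test. Of the 10 members 1 was called higher and 1 lower, against a background of 43.6% of features called (21.4% higher, 22.2% lower), and 4.46% higher and 67.7% lower among the features with a mean of 500 CPM or more. The median of the members was −0.05, against 0.03 over all features and −1.52 over the features at 500 CPM or more.

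TDH1 went from 149.9, 466 and 658 CPM in H3i YPGal to 2235, 3225 and 1312 CPM in H3i YPD. No YPD library overlapped a YPGal library, and the rise was 14.9-fold, 6.93-fold and 1.99-fold in replicates 1, 2 and 3. The fitted change was 2.50 ± 0.80 (adjusted p = 0.0360). The call was lost without H3i YPD replicate 1 (0.38, adjusted p = 0.488), without either H3i YPGal library (adjusted p = 0.199 and 0.126) or without WT YPGal replicate 3 (adjusted p = 0.0549). PFK1 went from 974 and 909 CPM to 592 and 481 CPM in replicates 1 and 3, with no overlap. Its fitted change was −1.22 ± 0.29 (adjusted p = 0.0125), and the adjusted p was 0.0575 to 0.0808 without any 1 of the 4 H3i libraries. PFK2 had −0.71 ± 0.28 (adjusted p = 0.0756), with 708 and 769 CPM in YPGal and 583 and 608 CPM in YPD.

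ENO2 and CDC19 were again higher in YPD in each replicate, though their fitted changes in H3i were only 0.36 ± 0.54 and 0.43 ± 0.41 (adjusted p = 0.623 and 0.431). ENO2 stood at 3946, 5094 and 1972 CPM in H3i YPGal and at 7088, 7328 and 3119 CPM in H3i YPD. CDC19 stood at 911, 1378 and 622 CPM in YPGal and at 1919, 2116 and 915 CPM in YPD. In both genes replicate 3 in YPD lay below the highest YPGal library, so the groups overlap. ENO1 had 0.26 ± 0.52, with 831, 2149.5 and 1858 CPM in YPGal and 2408, 3549.8 and 1439.8 CPM in YPD. It was higher in YPD in replicates 1 and 2 and lower in replicate 3.

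The difference of the responses, H3i minus WT, was tested as an interaction, since a call in 1 strain alone does not show that the strains differ. TDH1 responded more positively to YPD in H3i (6.05 ± 1.14, adjusted p = 0.0110), and PFK1 and PFK2 more negatively (−1.89 ± 0.41, adjusted p = 0.0156, and −1.54 ± 0.40, adjusted p = 0.0270). These were 1 higher and 2 lower of the 10 members, against 27.6% of all features called (13.1% higher, 14.5% lower), and 5.57% higher and 54.6% lower among features at 500 CPM or more. ENO1 had 1.96 ± 0.73 (adjusted p = 0.0815), and the other 6 genes had −1.03 to −0.26 with adjusted p of 0.297 to 0.816. Leaving out 1 library lost the call for TDH1 once (H3i YPGal replicate 1, adjusted p = 0.0555), for PFK1 3 times (adjusted p up to 0.0840) and for PFK2 7 times (adjusted p up to 0.125), and the TDH1 value ran from 4.03 to 7.26. With library totals PFK2 was not called (−0.97, adjusted p = 0.0604), whereas ENO1 was (2.52, adjusted p = 0.0375). This test shares its libraries with each of the comparisons above and is not independent of them.

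**Figure D3:**
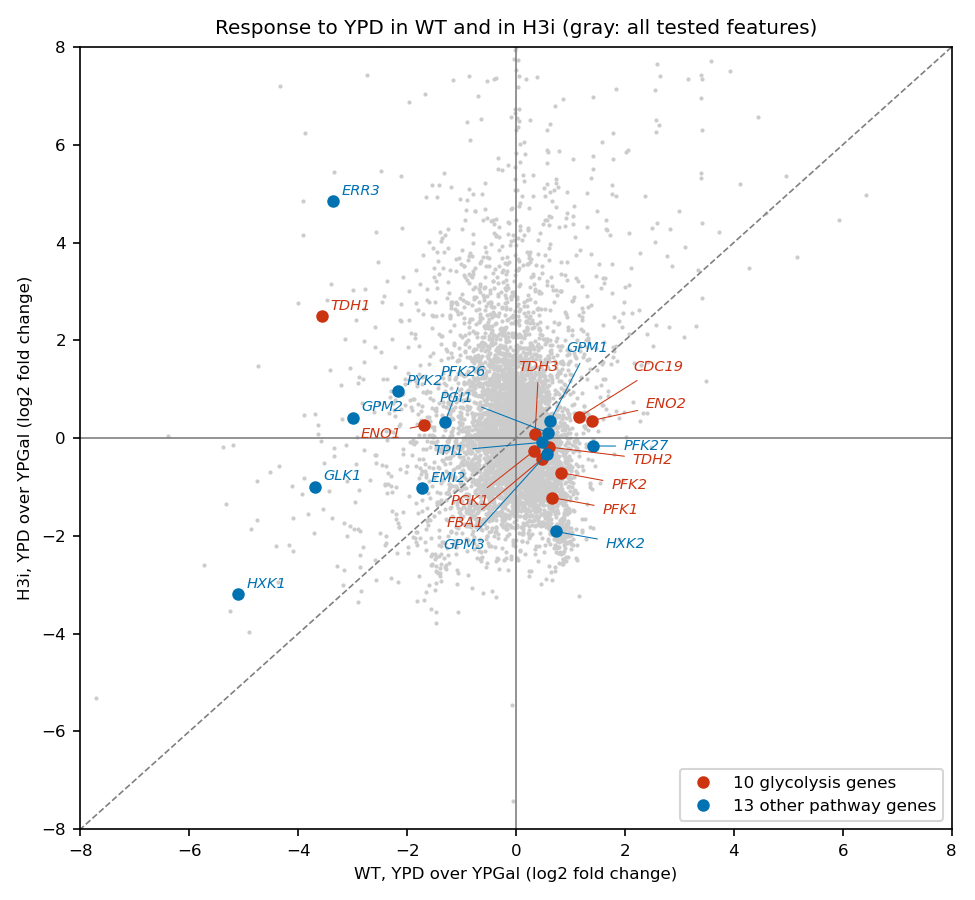
Each point is 1 feature, with the log2 change from YPGal to YPD in WT on the x axis and in H3i on the y axis, from the fit of 8 libraries. Gray points are all 6333 features within the plotted range (21 lie outside), red points the 10 genes and blue points 13 other genes of the pathway. The dashed line marks equal changes, and TDH1 (−3.56 in WT, 2.50 in H3i) lies far above it while PFK1 and PFK2 lie below it.

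In the fits of all 12 libraries fewer features were called. With a term for the kit, 0 members were called in any comparison, against 0.0624% of features in the WT response, 0.0624% in the H3i response, 0% between strains in YPGal, 0.0936% between strains in YPD and 0.0156% for the difference of responses. With a block for the replicate number, the calls were FBA1 (lower) and TDH1 (higher) in H3i against WT in YPD and TDH1 in the difference of responses (5.27 ± 1.12, adjusted p = 0.0485). The backgrounds for that fit were 0.172%, 7.85%, 0%, 11.2% and 3.25% in the same order. The common biological coefficient of variation was 1.13 with the kit term and 0.898 with the block, against 0.273 in the 8 libraries. Both fits of 12 libraries hold the replicate 2 libraries that lack counts of PFK1, PFK2 and TDH2.

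The paralogs were then compared with each other within each library, as the ratio of counts per coding length, which does not depend on how libraries are scaled. TDH1 stood at 1.07%, 6.06% and 17.5% of the TDH3 level in WT YPGal (replicates 1, 2 and 3) and at 0.0407%, 1.51% and 1.53% in WT YPD. In H3i it stood at 1.29%, 4.86% and 23.0% in YPGal and at 14.0%, 28.8% and 32.0% in YPD. The ratio was thus lower in YPD in every WT replicate and higher in YPD in every H3i replicate. Over 6 pairs (medium and replicate), H3i minus WT was 2.90 ± 3.41 on the log2 scale (mean ± SD), higher in 5 of 6 pairs, with an exact permutation p of 0.0938 (two-sided) and an adjusted p of 0.3125 over 8 tests. The average over pairs mixes YPGal, where the ratios of the strains lay near each other, with YPD, where H3i was higher in each replicate. Its SD includes that difference between the media. The smallest p that 6 pairs allow is 0.03125.

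ENO1 stood at 30.5%, 49.5% and 64.6% of ENO2 in WT YPGal and at 3.25%, 19.5% and 8.08% in WT YPD. In H3i it stood at 21.1%, 42.2% and 94.2% in YPGal and at 34.0%, 48.4% and 46.2% in YPD. ENO1 lost ground to ENO2 in YPD in each WT replicate, whereas in H3i it gained in replicates 1 and 2 and lost in replicate 3. Averaged over both strains, YPD minus YPGal was −1.29 ± 1.61 (log2, 6 pairs, exact permutation p = 0.125, adjusted p = 0.3125), and averaged over both media, H3i minus WT was 1.16 ± 1.55 (exact permutation p = 0.156, adjusted p = 0.3125). These averages pool pairs in which the ratio moved in opposite directions.

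TDH2, which differs from TDH3 at few bases, stood at 14.7% and 56.7% of TDH3 in WT YPGal (replicates 1 and 3), 21.0% and 56.9% in WT YPD, 15.7% and 61.9% in H3i YPGal, and 15.1% and 44.1% in H3i YPD. The replicates differed far more than the groups. In replicate 2 the ratio was 0.103% to 0.313% in 3 groups and 17.9% in WT YPD, the group in which TDH2 was not lost. PFK2 stood at 74.9% to 130.07% of PFK1 in replicates 1 and 3, so the subunits were near equal. The PFK2 to PFK1 ratio was higher in YPD in 4 of 4 pairs of these replicates (0.34 ± 0.20, exact permutation p = 0.125, the smallest that 4 pairs allow). With replicate 2, whose few counts of both genes gave ratios of 164% to 968%, it was higher in 6 of 6 pairs (0.85 ± 0.92, exact permutation p = 0.03125, adjusted p = 0.25), and the larger mean rests on those 2 pairs. None of the 8 ratio tests passed after adjustment. The PFK2 to PFK1 test between media had the smallest p that 6 pairs allow and still an adjusted p of 0.25. A change in 1 ratio alone could therefore not pass, and the lack of calls does not show that the ratios were unchanged.

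**Figure D4:**
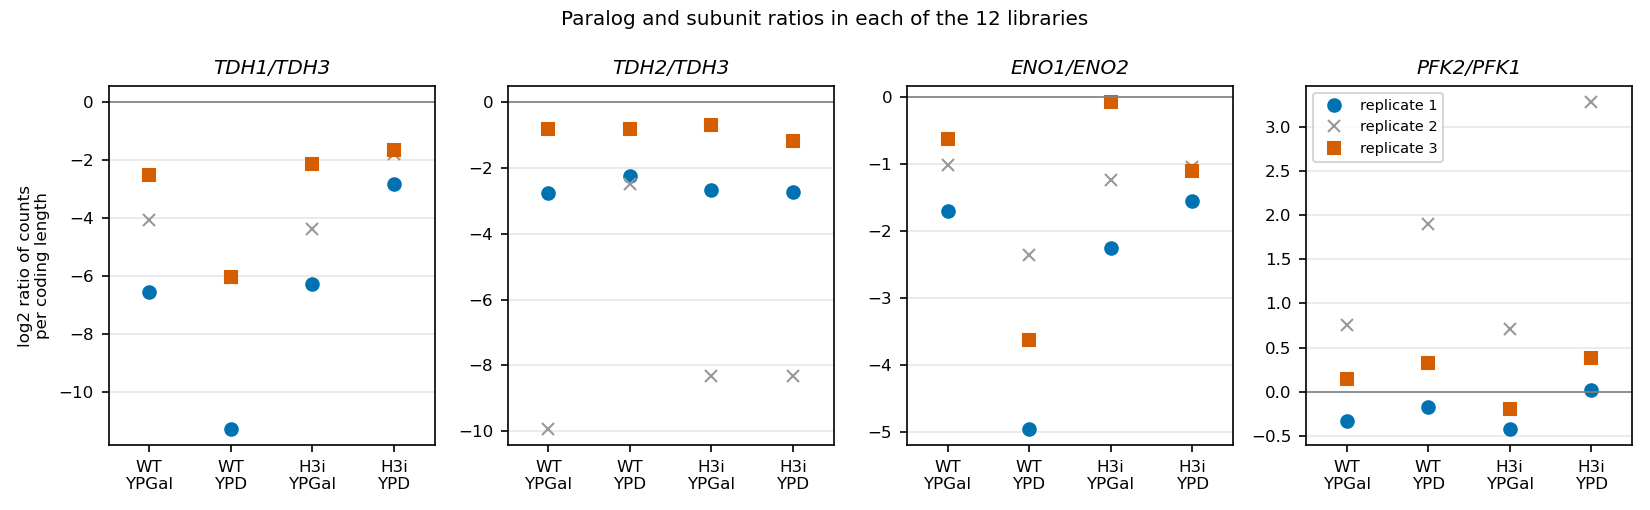
Log2 ratio of counts per coding length for 4 gene pairs in the 4 groups, with a point for each of the 12 libraries (circles, replicate 1; crosses, replicate 2; squares, replicate 3; the line marks equal levels). Within each replicate TDH1/TDH3 is lowest in WT YPD (0.0407% to 1.53% over the replicates) and highest in H3i YPD (14.0% to 32.0%), though groups overlap between replicates, and TDH2/TDH3 falls out of range of the others in 3 libraries of replicate 2.

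With the paralogs summed, an alternative added after seeing the data, neither the TDH nor the ENO sum was called in H3i against WT in YPD. TDH1 to TDH3 together had −0.36 ± 0.59 (adjusted p = 0.634), ENO1 and ENO2 together −0.85 ± 0.60 (adjusted p = 0.268), and PFK1 and PFK2 together −1.66 ± 0.33 (adjusted p = 0.00520), by edgeR's test over all features. The call for PFK1 and PFK2 was lost without WT YPD replicate 1 (−1.45, adjusted p = 0.0617) and in both fits of 12 libraries. In WT from YPGal to YPD the sums had 0.32 ± 0.59, 0.94 ± 0.62 and 0.75 ± 0.33, none of them called, and without both WT libraries of replicate 3 the enolase sum had 1.997 (adjusted p = 0.346). Summed TDH levels were 20579, 14454 and 7227 CPM in H3i YPD and 18001, 11850 and 5727 CPM in WT YPD, higher in H3i in each replicate. Their fitted value turned to 0.26 with library totals, so no direction relative to other genes is given for them. In H3i YPD, TDH1 made up 10.9%, 22.3% and 18.2% of all TDH counts in replicates 1, 2 and 3, against 0.0336%, 1.27% and 0.968% in WT YPD.

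Across the 8 libraries the members' log2 levels formed groups, given as Pearson's r with no test, since the libraries share the groups and kits. ENO2 and CDC19 had r = 0.969, TDH2 and CDC19 0.940, TDH1 and ENO1 0.929, FBA1 and PGK1 0.914, and TDH3 and PGK1 0.909. TDH1 ran opposite to PFK1 (−0.880) and PFK2 (−0.822). Levels of 4470 other features with a mean of at least 50 CPM were ranked by how closely they followed the mean of the 10 genes. The first were CDC48 (r = 0.924), PTK1 (0.913), YDR476C (0.900), TRP5 (0.866) and CPS1 (0.857). The other pathway genes and the regulators described below, the H3 genes and the strain marker genes were left out of this ranking, so they were not compared with these.

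The other genes of the pathway were a list of 15, of which 13 could be tested. Their calls are given beside the share of all features called. In WT from YPGal to YPD 2 fell and 0 rose (all features, 0.677% and 0.0944%): GLK1, the glucokinase gene (−3.70 ± 0.49, adjusted p = 0.0203), and PYK2, the minor pyruvate kinase gene (−2.16 ± 0.35, adjusted p = 0.0422). In H3i 2 rose (PYK2 and ERR3) and 2 fell (21.4% and 22.2% of all features), namely the hexokinase genes HXK1 (−3.19 ± 0.77, adjusted p = 0.0129) and HXK2 (−1.91 ± 0.39, adjusted p = 0.00687). Between strains in YPD 6 were higher and 2 lower in H3i, against 26% and 23.7% of all features. GLK1 had 3.27 ± 0.48 (adjusted p = 0.00152), with 1884, 2578 and 561 CPM in H3i and 110.3, 503 and 44.2 CPM in WT. GPM2, a homologue of the phosphoglycerate mutase gene, had 3.28 ± 0.68 (adjusted p = 0.00590). ERR3, an enolase-related gene near a chromosome end, stood at 43.7, 5.37 and 26.1 CPM in H3i YPD and at 0, 0.325 and 0 CPM in WT YPD. It has near-identical copies, so its counts and any value fitted to them are uncertain. In the difference of responses 4 were higher and 1 lower (13.1% and 14.5% of all features). No gene of the list was called between strains in YPGal. Without both WT libraries of replicate 3, 1 rose and 6 fell in WT, and the GPM2 difference between strains in YPD was 6.38 (adjusted p = 0.00120). The GLK1 call in WT was lost without either WT YPD library (adjusted p = 0.317 and 0.133), and none of the calls in this list held over 12 libraries with the kit term. With the replicate block those of HXK2, in all 3 comparisons, and those of GLK1 and GPM2 between strains in YPD held. The PYK2 call in WT was lost in 10 alternative fits and held in 7, and its call in H3i was lost in 9 and held in 8. Without the replicate block in the 8 libraries, 0 genes of the list were called in the WT response.

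Of 6 regulators of these genes, TYE7 alone was called in the main fit of 8 libraries. It encodes a transcription factor that binds upstream of glycolytic genes, and stood at 62.0 and 159 CPM in H3i YPD and at 165 and 569.5 CPM in WT YPD (replicates 1 and 3). H3i was lower within each of these replicates, and replicate 3 was higher than replicate 1 in both strains. In replicate 2 H3i was higher, at 157 CPM against 0.210 CPM in WT YPD, where TYE7 had 11 counts while WT YPGal stood at 398 CPM. The fitted difference was −2.22 ± 0.39 (adjusted p = 0.00309). It was not called without the replicate block or in either fit of 12 libraries (adjusted p = 0.946 and 0.605). TYE7 also fell in H3i from YPGal to YPD (−1.47 ± 0.39, adjusted p = 0.0182). This call was lost in 6 alternative fits and held in 11. It was lost with library totals (−1.07, adjusted p = 0.0547), without the replicate block and in both fits of 12 libraries. RAP1 had −0.57 ± 0.23 (adjusted p = 0.0692 by edgeR's test) between strains in YPD. It stood at 173, 196 and 215 CPM in H3i and at 171, 289 and 203 CPM in WT. In 3 alternative fits RAP1 was called lower in H3i, and with library totals its difference turned to 0.047. GCR1, GCR2, REB1 and ABF1 were not called in any of the 5 comparisons of the main fit. With library totals, 1 of the 6 regulators was called higher in H3i than in WT in YPD, and it was neither TYE7 nor RAP1. In the H3i response 1 regulator was called higher with library totals.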

How the data were processed

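The deposited tables hold 1 read count per gene and library, made by the authors. The submitters' processing notes list FastQC, HISAT2, SAMtools, Picard and DESeq2 and the sacCer3 build, with no version or role, and the labels name neither a counting tool nor a strand setting. The labels' protocols give MagMax extraction and TruSeq Stranded mRNA libraries for replicates 1 and 2, and Trizol with glass beads and TruSeq Stranded mRNA LT libraries for replicate 3. Besides the 7127 features, each table has 5 entries that name no gene, left out of gene totals. They took 22.0% to 38.6% of a library in replicates 1 and 3 and 66.3% to 74.5% of one in replicate 2.

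Counts were fitted with edgeR 4.0.16 (quasi-likelihood test, TMM factors, filterByExpr) in R 4.3.3 over 6354 features, with group and replicate number as terms, on 8 libraries (3 residual degrees of freedom). A call is a Benjamini-Hochberg adjusted p under 0.05 over all features tested. The SE given with an edgeR value was derived from the test, as the absolute log2 change divided by the square root of its F statistic. Replicate 2 was left out because earlier results of these data showed its loss of counts. The fits of 12 libraries tested 6408 features. DESeq2 1.42.0 and the other alternatives are given below, and the procedure was tested on simulated data. The sample titles call the replicates biological, but the labels do not say how the cultures were kept apart. The p-values therefore measure the spread between these samples only.

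Libraries with equal replicate numbers resembled each other. Their deviations from the group means correlated at r = 0.367 to 0.817 in the 18 pairs with the same number. Of 12 libraries, 12 correlated best with their own number. Equal numbers share the loss of counts in replicate 2 and the kit of replicate 3, so this check cannot show whether cultures were paired.

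The 10 genes and the gene lists were chosen with earlier results of these data known. All 10 genes and 6 regulators are named, with up to 3 called genes of the other pathway list per comparison by size of change, and 5 features by likeness of pattern; other names were chosen after their values were seen. Paralog ratios were tested by exact permutation within pairs. With no promoter or protein table at hand, 600 bases before each start codon and the coding sequences were read from the R64 genome with Biopython 1.88.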

Additional observations from a re-analysis of the deposited data

Results flagged for a closer look

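For 3 of the 10 genes the response to YPD differed between H3i and WT by edgeR's interaction test. The difference, H3i minus WT on the log2 scale, was 6.05 for TDH1 (adjusted p = 0.0110), −1.89 for PFK1 (adjusted p = 0.0156) and −1.54 for PFK2 (adjusted p = 0.0270). Of all features 27.6% passed this test, so 3 of 10 is close to the background. The PFK2 call was lost with library totals (−0.97, adjusted p = 0.0604) and without any of 7 single libraries.

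The same test was passed by 5 of 13 other genes of the pathway and by 1 of 6 regulators, against the same 27.6% of all features. GPM2 differed by 3.41 (adjusted p = 0.0289), PYK2 by 3.12 (adjusted p = 0.00798), GLK1 by 2.70 (adjusted p = 0.0203) and HXK2 by −2.64 (adjusted p = 0.0132). ERR3 differed by a fitted 8.20 (adjusted p = 0.0472), a size that depends on the libraries without counts, and its counts are uncertain because of near-identical copies. Without both WT libraries of replicate 3, ERR3 (adjusted p = 1.0) and HXK2 (−2.24, adjusted p = 0.0745) did not pass. TYE7 differed by −1.89 (adjusted p = 0.0353), a call lost with library totals. Without the replicate block 0 of these genes passed. The number of alternative fits that lost the call was 11 for ERR3, 9 for TYE7, 7 for GPM2, 6 each for GLK1 and HXK2, and 3 for PYK2.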

How the results depend on the processing

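Calls in the 8-library fit numbered 49 (WT response to YPD), 2769 (H3i response), 0 (strains in YPGal), 3163 (strains in YPD) and 1756 (difference of responses), with 0, 2, 0, 5 and 3 members. With 12 libraries and the kit term they numbered 4, 4, 0, 6 and 1, with 0 members throughout. With 12 libraries and the replicate block, which uses the replicate number, they numbered 11, 503, 0, 716 and 208, with 0, 0, 0, 2 and 1 members. Without the replicate block the 8 libraries gave 5, 1183, 0, 1579 and 25, with 0, 0, 0, 3 and 0 members. DESeq2 called 657 features and 6 members in the WT response, 12 features between strains in YPGal, 9 members between strains in YPD and 5 in the difference of responses. With only the groups compared, 444 features and 2 members were called in the WT response and 2 features between strains in YPGal, where keeping any count gave 3. Without both WT libraries of replicate 3 the WT response had 493 calls and 1 member, strains in YPGal 2 calls, strains in YPD 3 members, the H3i response 3063 calls and the difference of responses 1779. Leaving out 1 library gave 4 to 381, 1201 to 2955, 0 to 5, 1917 to 3358 and 524 to 1591 calls, with 0 to 1, 0 to 2, 0, 3 to 8 and 0 to 3 members. The cause of these changes was not tested.

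Some fitted directions turned, none of them in a member called in the alternative. With the replicate block over 12 libraries PFK2 turned to 1.26 (H3i response), 0.58 (strains in YPD), 0.57 (difference) and 0.012 (strains in YPGal), PFK1 and PFK2 summed to 0.35, and TDH3 to −0.0087 (H3i response). In YPGal between strains it gave 0.11 for TDH2, 0.017 for ENO1 and 0.097 for ENO2. The kit term gave −0.0098 for TDH3 (H3i response) and, between strains in YPGal, 0.0032 for PFK2, −0.067 for TDH1, 0.069 for ENO1 and 0.11 for ENO2, which had 0.061 without the replicate block. Library totals gave 0.22 for TDH2 and 0.14 for PGK1 in the H3i response, 0.14 for TDH3 and 0.26 for the TDH sum between strains in YPD, and 0.30 for TDH3 in the difference, and 0.047 for RAP1 between strains in YPD. Without both WT libraries of replicate 3, values between strains in YPGal were 0.12 (PFK2), 0.23 (TDH2), 0.019 (TDH3), 0.27 (PGK1), 0.63 (ENO1), 0.66 (ENO2), 0.16 (CDC19) and, in the same direction as before, 1.21 (TDH1). Leaving out 1 library turned PGK1 in WT (−0.073 to 0.80), TDH3 (−0.066 to 0.18) and ENO1 (−0.64 to 0.92) in H3i, and between strains in YPGal PFK2 (−0.25 to 0.16), FBA1 (−0.33 to 0.023), TDH1 (−0.36 to 0.72), TDH2 (−0.46 to 0.31), TDH3 (−0.43 to 0.046), PGK1 (−0.62 to 0.25), ENO1 (−0.68 to 0.68), ENO2 (−0.87 to 0.71) and CDC19 (−1.10 to 0.20). Leaving out 1 replicate, the log2 ratio of TDH2 to TDH3 between media ran from −0.0071 to 1.98 and that of PFK2 to PFK1 between strains from −0.047 to 0.36. Levels under 10 CPM in replicate 1 rest on few counts, so the size of the TDH1 difference is less certain than its direction, which was the same in each replicate.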
